A study of Homo sapiens with 6 samples.

Results

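Interferon response genes are the receptors, kinases, transcription factors, nucleic acid sensors and antiviral effectors of the interferon pathway. A list of 41 such genes was matched by symbol to the deposited expression table, and 36 of them had a row among its 15059 genes. The other 5, IRF7, OAS2, IFI44, IFI44L and IFITM1, were not analysed here. Of the 36, 29 reached a signal of 1 in 2 or more libraries and were tested, and 7 did not. The signal is the abundance per gene and library that RSEM gave, which is scaled for transcript length.

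The 6 libraries, 2 in each of 3 groups, were made from total RNA of NOMO-1, a human line of acute myeloid leukaemia with monocytic features. Rescue cells carried METTL16 overexpression (OE-METTL16) and the guide sgMETTL16, knockout cells carried the empty vector (EV) and sgMETTL16, and control cells carried EV and the control guide sgNS. All 3 groups were transduced with virus and grown in 2 µg/ml puromycin for 1 to 2 weeks, so all were exposed to viral vectors. METTL16 is an RNA methyltransferase, and the comparisons asked what its loss and its reintroduction did to transcript levels. Every value comes from a single cell line, and no label says whether the 2 libraries of a group came from separate cultures. The p-values therefore rest only on the spread between these libraries, which the test estimated mostly over all genes and less from each gene. In bulk RNA, fewer cells expressing a gene and less of its RNA per cell cannot be told apart.

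Interferons bind surface receptors whose attached JAK kinases phosphorylate STAT proteins. Type I interferon signals through IFNAR1 and IFNAR2, with the kinases JAK1 and TYK2, to the complex ISGF3, which contains STAT2 and IRF9. ISGF3 binds the interferon-stimulated response element in the promoters of its targets, while the gamma-activated site serves the response to interferon gamma. The induced genes include sensors of foreign nucleic acid and proteins that block viral entry, translation and release. In monocytic cells the pathway also shapes differentiation and inflammatory responses.

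Promoter stretches are shown for the members called in knockout whose windows held a response element, and for IRF1 as a case with a gamma-activated site. Windows of 300 bases around RefSeq starts (GRCh38.p14), of which 250 lie before the start, were searched on both strands for the response element, spelled GAAA, any 2 bases and GAAA, and for the gamma-activated site, spelled TTC, any 3 bases and GAA. Windows were matched for 31 of the 41 members, DDX58 under its present symbol RIGI, and not for IFNAR2, IRF2, IRF3, IRF7, OAS2, IFIT2, IFITM2, OASL, TRIM22 and USP18. The response element was found in 16 of these 31, and in 4.38% of the 27305 genes with a window (3.57% of 35116 windows). The gamma-activated site was found in 8 of the 31 members and in 9.38% of genes (7.66% of windows), and in 4 members, BST2, IFI27, IFITM1 and MX1, it overlapped a response element. None of the 5 receptor and kinase genes or the 4 transcription factors with a window held a response element, whereas 13 of 15 effectors and 3 of 6 sensors did. Of the members called in knockout, IRF1, IRF9, OAS1 and BST2 held a gamma-activated site. The capitals below mark the response elements, except for IRF1, and a match on the opposite strand reads TTTC, any 2 bases and TTTC.
The ISG15 stretch (chr1:1013363-1013422, plus strand) held 2 overlapping matches.
ISG15: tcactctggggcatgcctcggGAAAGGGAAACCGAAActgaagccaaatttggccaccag
The IFI6 stretch (chr1:27672263-27672362, minus strand) held 3 matches.
IFI6: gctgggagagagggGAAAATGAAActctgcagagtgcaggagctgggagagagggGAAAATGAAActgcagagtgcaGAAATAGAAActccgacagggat
The BST2 stretch (chr19:17405738-17405767, minus strand) held 2 overlapping response elements and, across the start of the first, a gamma-activated site that is not set apart in capitals.
BST2: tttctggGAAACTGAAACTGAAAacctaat
The IFIT3 stretch (chr10:89327832-89327891, plus strand) held 2 matches, both on the opposite strand.
IFIT3: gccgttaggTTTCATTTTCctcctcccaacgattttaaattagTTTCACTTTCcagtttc
The IFIH1 stretch (chr2:162318820-162318849, minus strand) held 2 overlapping matches on the opposite strand.
IFIH1: attcgcTTTCCTTTTCTGTTTCccgcggtg
The OAS3 stretch (chr12:112938324-112938351, plus strand) held 1 match.
OAS3: aagaaacGAAACTGAAAgcagggaattt
The IRF1 stretch (chr5:132490864-132490923, minus strand) held no response element, and its capitals mark a gamma-activated site.
IRF1: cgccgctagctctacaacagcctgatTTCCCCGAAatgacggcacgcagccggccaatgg

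**Figure D1:**
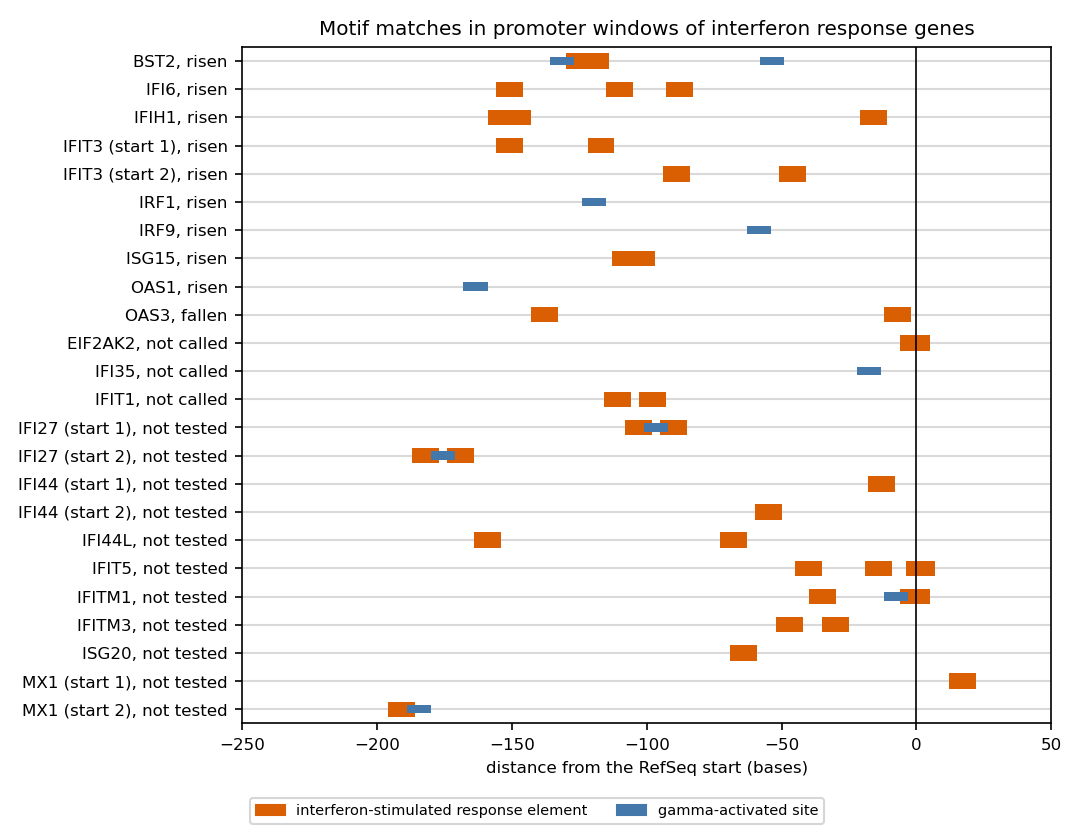
Positions of response elements (orange) and gamma-activated sites (blue) in the promoter windows, as distance in bases from the RefSeq start, with the call of each gene in knockout minus control. Of the members with a response element, 5 were called risen, 1 fallen and 2 not called, and the others were not tested.

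The signal summed over all genes ran from 597160 in knockout replicate 2 to 681928 in rescue replicate 2, with 619472 in control replicate 2. By median deviation over all genes tested control replicate 2 lay lowest, at -0.10 on the log2 scale, against 0.0024 to 0.040 in the other libraries. METTL16, the targeted gene, had a signal of 12.3 and 12.1 in rescue libraries, 6.05 and 5.83 in knockout libraries and 9.89 and 9.63 in control libraries, so that knockout lay lowest (log2 change against control -0.63, limma, adjusted p = 4.76e-05). Most myeloid maturation markers moved with the groups. The summed signal, over 21 of 26 listed genes, was 1040 and 1035 in rescue, 2178 and 2106 in knockout and 796 and 741 in control libraries. CTSG was the largest part of it, at 492 and 482 in rescue, 1364 and 1340 in knockout and 324 and 304 in control libraries. Of the 21 genes, 17 rose and 1 fell in knockout, where 26.2% and 13.5% of all genes tested did so. CEBPB and ITGAM had lower means in knockout, at 0.84 and 0.92 times the control mean. CD14 and MPO had no row and were not analysed here. The part of this shift in the interferon genes was not tested. Lymphoid markers, with 6 of 12 genes in the table, summed to 131 and 129.9 in rescue, 162 and 156 in knockout and 133 and 116 in control libraries, nearly all of it NKG7. Plasmacytoid dendritic markers (4 of 7 genes) summed to 34.3 and 35.3 in rescue, 46.4 and 46.2 in knockout and 33.6 and 30.1 in control libraries, mostly IRF8. TCF4 and IL3RA differed less, at 1.16 and 1.01 times the control mean in knockout. GZMB had a signal of 0.71 and 0.63 in rescue, 1.60 and 1.995 in knockout and 0.883 and 0.661 in control libraries. It thus reached a signal of 1 only in the knockout libraries. The part of these markers in the interferon genes was not tested. Markers of erythroid and megakaryocytic cells (4 of 11) and of epithelial and kidney cells (2 of 7) summed to at most 6.67 and 1.34.

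In knockout against control cells 18 of the 29 tested members rose, OAS3 alone fell, and for 10 the adjusted p was above 0.05. The strongest changes were in the transcription factors IRF9 and IRF1 and the effectors IFIT3 and ISG15, at 1.45 to 1.88 times the control level. The median log2 change of the 29 was 0.24, beside 0.067 over all 12734 genes tested. Of all genes, 26.2% rose and 13.5% fell by the same rule (39.7% in either direction). Both knockout libraries lay above both control libraries for 23 members, where 43.4% of all genes did so, and below them for 1 member, where 25.1% did so. IFIT1, among the 23, passed the filter only with the help of the knockout libraries. The count of risen members was 11 without control replicate 2, without knockout replicate 1 or without knockout replicate 2. The main test did no scaling between libraries beyond that of the deposited signal. Of all calls, 65.9% were rises, a share that became 49.7% after quantile normalization and 45.9% after median-of-ratios scaling, under which 17 and 15 members rose and 1 and 3 fell. Under the same settings the members' median log2 change was 0.18 and 0.17, and that of all genes -0.0037 and -0.014. The calls for IFNAR2, TYK2, IRF1, IRF3, IRF5, IRF9, ISG15, IFI6, IFIT3 and BST2 held under every alternative that tested them.

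**Figure D2:**
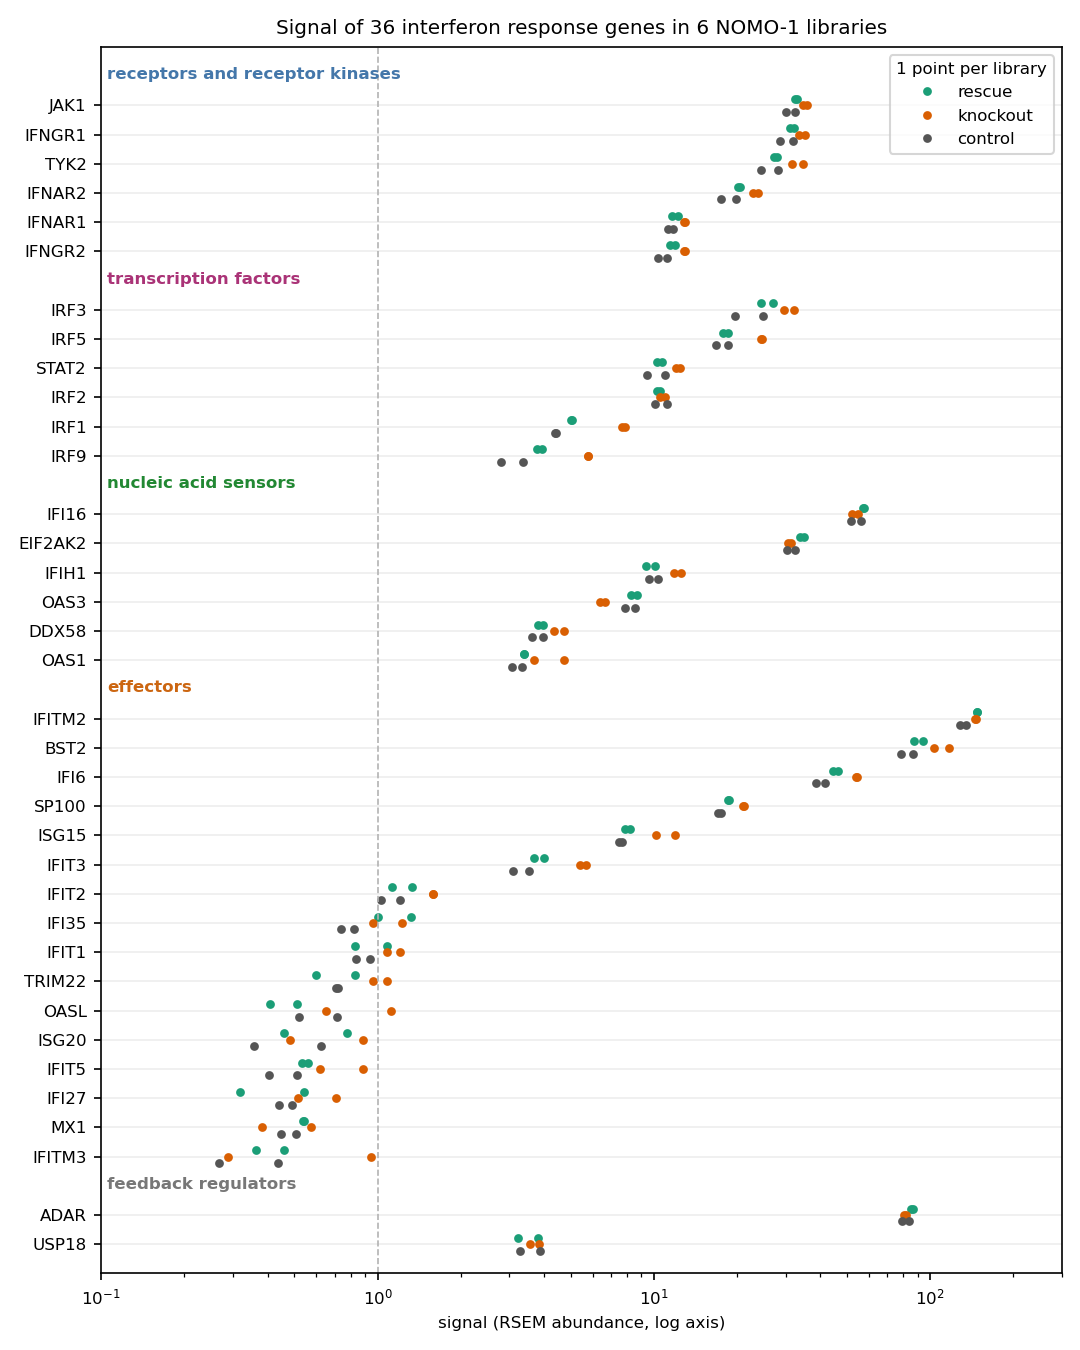
Signal of the 36 members with a row (log axis), 1 point per library, with rescue above knockout above control in each gene's line, and a dashed line at a signal of 1. The members ran from 0.267 for IFITM3 to 148 for IFITM2, and IRF1, IRF9 and IFIT3 show knockout points clear of the rest.

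The receptor subunits and their kinases were all expressed. In knockout 4 of the 6 rose and none fell, where 26.2% and 13.5% of all genes tested did so. The log2 changes of the 6 ran from 0.15 to 0.33. TYK2 (ENSG00000105397, chromosome 19, 10350529 to 10380676, minus strand, GRCh38), a kinase bound to IFNAR1, had a signal of 27.2 and 27.9 in rescue, 34.8 and 31.7 in knockout and 28.2 and 24.4 in control libraries. Its log2 change in knockout was 0.33 (SE 0.077, adjusted p = 0.0041). Knockout libraries were the highest, and rescue and control libraries overlapped. IFNAR2 (ENSG00000159110, chromosome 21, 33229901 to 33265675, plus strand), the signalling subunit of the type I receptor, had a signal of 20.5 and 20.1 in rescue, 23.8 and 22.8 in knockout and 19.9 and 17.5 in control libraries (log2 0.30, SE 0.076, adjusted p = 0.00588). Another annotated protein-coding entry overlaps IFNAR2 on the same strand, so reads may be divided between them.
IFNGR2, a subunit of the interferon gamma receptor, had a signal of 11.4 and 11.97 in rescue, 12.8 and 12.95 in knockout and 11.2 and 10.4 in control libraries (log2 0.24, adjusted p = 0.0259). JAK1, the kinase that both receptor types share, had a signal of 32.4 and 33.1 in rescue, 35.9 and 34.7 in knockout and 32.4 and 30.2 in control libraries (log2 0.17, adjusted p = 0.0487). Both genes were highest in the knockout libraries by a small margin. Both calls were lost without control replicate 2 and without any 1 of the knockout or rescue libraries, and that of JAK1 also after median-of-ratios scaling. Over the alternatives the adjusted p ran from 0.0029 to 0.29 for JAK1 and from 0.00325 to 0.148 for IFNGR2. JAK1 and IFNGR2 each overlap a protein-coding gene on the opposite strand, as do IRF1, IRF3, EIF2AK2, IFIT1, IFIT2 and IFIT3, and no source states whether counting used strand. IFNGR1 (log2 0.18, adjusted p = 0.0514) and IFNAR1 (log2 0.15, adjusted p = 0.137) did not pass, with signals of 28.6 to 35.2 and 11.3 to 12.99 over the 6 libraries. IFNGR1 passed under 5 of 16 alternatives, among them the replicate block (adjusted p = 0.0328) and the fit without control replicate 1 (adjusted p = 0.0114).

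Among the transcription factors, 5 of 6 tested genes rose in knockout and none fell, where 26.2% and 13.5% of all genes tested did so. IRF9 (ENSG00000213928, chromosome 14, 24161053 to 24166565, plus strand), the DNA-binding subunit of ISGF3, had a signal of 3.95 and 3.76 in rescue, 5.79 and 5.77 in knockout and 3.36 and 2.80 in control libraries. Knockout cells held 1.88 times the control mean, and IRF9 changed by 0.74 on the log2 scale (SE 0.10, adjusted p = 8.13e-05). The 3 groups did not overlap, with rescue in between. An annotated protein-coding entry overlaps IRF9 on the same strand, and the counting of shared reads is not stated. IRF1 (ENSG00000125347, chromosome 5, 132481609 to 132490798, minus strand), an activator induced through its gamma-activated site, had a signal of 5.05 and 4.995 in rescue, 7.89 and 7.70 in knockout and 4.38 and 4.44 in control libraries. Its knockout level was 1.77 times the control mean (log2 0.70, SE 0.089, adjusted p = 4.35e-05). Again no groups overlapped and rescue libraries lay nearer to control.
IRF5 (ENSG00000128604, chromosome 7, 128937612 to 128950035, plus strand), which acts after Toll-like receptors in myeloid cells, had a signal of 17.8 and 18.6 in rescue, 24.5 and 24.4 in knockout and 18.5 and 16.7 in control libraries (log2 0.45, SE 0.073, adjusted p = 0.000286). IRF3 (ENSG00000126456, chromosome 19, 49659569 to 49665875, minus strand), the factor that starts interferon transcription, had a signal of 26.9 and 24.5 in rescue, 32.2 and 29.5 in knockout and 24.7 and 19.7 in control libraries (log2 0.46, SE 0.093, adjusted p = 0.00142). For both, rescue and control libraries overlapped below knockout. STAT2, the ISGF3 subunit that carries the activation domain, had a signal of 10.7 and 10.2 in rescue, 12.5 and 11.98 in knockout and 10.99 and 9.44 in control libraries. This small rise (log2 0.24, adjusted p = 0.04) was lost under 8 of 16 alternatives, among them the fits without control replicate 2 and without any 1 of the knockout or rescue libraries (adjusted p from 0.00859 to 0.21 over the alternatives). IRF2, which can oppose IRF1 at its targets, had overlapping groups between 10.1 and 11.1 (log2 0.018, 95% interval -0.16 to 0.19).

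The nucleic acid sensors did not move together. Of the 6 tested, IFIH1 and OAS1 rose in knockout, OAS3 fell and 3 were not called, with a median log2 change of 0.099. Over all genes tested 26.2% rose and 13.5% fell, so these counts do not set the sensors apart from other genes. IFIH1 (ENSG00000115267, chromosome 2, 162267079 to 162318703, minus strand), the sensor MDA5 for long viral RNA, had a signal of 10.1 and 9.40 in rescue, 11.8 and 12.5 in knockout and 10.4 and 9.63 in control libraries (log2 0.26, SE 0.083, adjusted p = 0.0234). OAS1, an oligoadenylate synthetase that activates RNase L, had a signal of 3.39 and 3.39 in rescue, 3.70 and 4.72 in knockout and 3.34 and 3.06 in control libraries (log2 0.30, adjusted p = 0.0421). Its knockout libraries differed more from each other than the other groups did, and without knockout replicate 2 the log2 change was 0.16 (adjusted p = 0.453). The OAS1 call was also lost without control replicate 1 (log2 0.35) and without control replicate 2 (log2 0.26). Quantile normalization (adjusted p = 0.14), median-of-ratios scaling (adjusted p = 0.101) and no filter on low values (adjusted p = 0.058) lost it as well. In all, the OAS1 call was lost under 6 of 15 alternatives. The IFIH1 call was lost without control replicate 2, without knockout replicate 1 or without knockout replicate 2, up to an adjusted p of 0.187.
OAS3 (ENSG00000111331, chromosome 12, 112938352 to 112973249, plus strand), a larger synthetase of the same family with 2 response elements in its window, was the only member called as fallen. Its signal was 8.28 and 8.68 in rescue, 6.64 and 6.40 in knockout and 8.57 and 7.88 in control libraries, a log2 change of -0.29 (SE 0.087, adjusted p = 0.0157). Knockout libraries lay below all others. The call was lost without knockout replicate 1 (adjusted p = 0.065) and without knockout replicate 2 (adjusted p = 0.117).
IFI16, a DNA sensor, and EIF2AK2, the kinase PKR that halts translation on viral RNA, were the most abundant sensors and had overlapping knockout and control libraries. IFI16 had a signal of 57.3 and 57.4 in rescue, 51.96 and 55.02 in knockout and 56.3 and 51.6 in control libraries (log2 -0.011, 95% interval -0.14 to 0.12). EIF2AK2 had a signal of 33.9 and 35.1 in rescue, 30.7 and 31.3 in knockout and 32.5 and 30.4 in control libraries (log2 -0.018, 95% interval -0.16 to 0.12). It was called as fallen after median-of-ratios scaling only (log2 -0.11, adjusted p = 0.0408). DDX58, the sensor RIG-I, did not pass (log2 0.21, adjusted p = 0.1046), with signals of 3.63 to 4.71.

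Of the 9 effectors tested, 7 rose and none fell in knockout, with a median log2 change of 0.29. Over all genes tested 26.2% rose and 13.5% fell. Both knockout libraries lay above both control libraries for all 9, where 43.4% of all genes tested did so. IFIT1, counted among these 9, passed the filter only with the help of the knockout libraries. Its signal was 1.08 and 0.828 in rescue, 1.21 and 1.08 in knockout and 0.837 and 0.938 in control libraries. IFIT3 (ENSG00000119917, chromosome 10, 89327894 to 89340971, plus strand), part of the complex that binds viral RNA lacking host cap marks, had a signal of 3.68 and 3.99 in rescue, 5.41 and 5.68 in knockout and 3.09 and 3.52 in control libraries. Knockout cells held 1.68 times the control mean (log2 0.61, SE 0.0997, adjusted p = 0.00033). ISG15 (ENSG00000187608, chromosome 1, 1001138 to 1014540, plus strand), a ubiquitin-like modifier, had a signal of 8.21 and 7.84 in rescue, 11.9 and 10.2 in knockout and 7.68 and 7.49 in control libraries (log2 0.48, SE 0.091, adjusted p = 0.000928). The groups did not overlap for either gene, and rescue libraries lay close above control.
IFI6 (ENSG00000126709, chromosome 1, 27666061 to 27672218, minus strand), an antiviral protein of the endoplasmic reticulum and mitochondria, had a signal of 46.3 and 44.4 in rescue, 54.0 and 54.3 in knockout and 41.8 and 38.7 in control libraries (log2 0.42, SE 0.062, adjusted p = 0.000135). BST2 (ENSG00000130303, chromosome 19, 17402939 to 17405648, minus strand), the surface protein tetherin that holds budding virions, had a signal of 93.8 and 87.7 in rescue, 117 and 103 in knockout and 86.6 and 78.7 in control libraries (log2 0.41, SE 0.0698, adjusted p = 0.000446). These abundant effectors followed the same order of groups without overlap. SP100, a nuclear body protein, had a signal of 18.5 and 18.6 in rescue, 21.2 and 21.1 in knockout and 17.5 and 17.1 in control libraries (log2 0.27, adjusted p = 0.00597), a call lost without knockout replicate 1 (adjusted p = 0.0567).
IFIT2, of the same family as IFIT3, rose by the test at low signal, with 1.13 and 1.33 in rescue, 1.59 and 1.58 in knockout and 1.21 and 1.03 in control libraries (log2 0.29, adjusted p = 0.0484), and lost the call under 10 of 15 alternatives, including the fit without each library in turn (adjusted p up to 0.171). IFITM2, which blocks fusion of virus with the cell membrane, was the most abundant member, with a signal of 148 and 148 in rescue, 146 and 145 in knockout and 135 and 128 in control libraries (log2 0.14, adjusted p = 0.0411). It lost the call under 8 of 16 alternatives, including the fits without control replicate 2 and without any 1 of the knockout or rescue libraries (adjusted p up to 0.225). Its annotated span overlaps IFITM1, and its sequence resembles that of IFITM3, so the division of reads within the family is uncertain. IFI35 (log2 0.23, adjusted p = 0.141) and IFIT1 (log2 0.18, adjusted p = 0.217) did not pass, at signals of 0.738 to 1.33 and 0.828 to 1.21.

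The members below the filter were all effectors, namely MX1, OASL, TRIM22, ISG20, IFI27, IFIT5 and IFITM3, with signals of 0.267 to 1.12 and no test. Both knockout libraries lay above both control libraries for TRIM22, IFIT5 and IFI27, and the groups overlapped for the other 4. Of all genes tested, 43.4% lay above in this way, so the count does not set the low members apart. TRIM22 had 0.829 and 0.598 in rescue, 0.96 and 1.08 in knockout and 0.709 and 0.721 in control libraries. IFIT5 had 0.534 and 0.56 in rescue, 0.619 and 0.885 in knockout and 0.511 and 0.404 in control libraries. These genes, MX1 and IFITM3 were picked for description after their values were seen. MX1, a dynamin-like GTPase that is among the genes best known for induction by interferon, had 0.543 and 0.539 in rescue, 0.381 and 0.576 in knockout and 0.507 and 0.448 in control libraries. IFITM3, which blocks viral entry from endosomes, had 0.458 and 0.364 in rescue, 0.948 and 0.287 in knockout and 0.267 and 0.438 in control libraries, so the knockout libraries held both the highest value and a value in the range of control. In all of the 5 low members with a promoter window, the window held a response element. From the spacing of low values, a signal of 1 stands for about 46 to 51.2 reads over 2000 nt, so values this low carry large counting error.

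The feedback regulators showed little difference in knockout. ADAR, which edits adenosine in long paired RNA and so limits its sensing, had a signal of 85.1 and 86.9 in rescue, 81.7 and 80.6 in knockout and 83.9 and 79.3 in control libraries (log2 -0.0080, 95% interval -0.13 to 0.11). It was called as fallen after median-of-ratios scaling only (log2 -0.10, adjusted p = 0.0323). USP18, which removes ISG15 from proteins and damps the type I receptor, had a signal of 3.82 and 3.23 in rescue, 3.85 and 3.56 in knockout and 3.87 and 3.29 in control libraries (log2 0.041, 95% interval -0.19 to 0.27).

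Set side by side, the roles differed in their median log2 change in knockout, which was 0.46 for transcription factors, 0.29 for effectors, 0.21 for receptors and kinases, 0.099 for sensors and 0.017 for feedback regulators. These medians describe 6, 9, 6, 6 and 2 tested genes, and the difference between roles was not tested. Calls occurred with and without a match to the response element in the promoter window. Among tested members with a window, 5 of 8 with a match rose, namely IFIH1, ISG15, IFI6, IFIT3 and BST2. Of the 15 without a match, 9 rose. Only the stated spelling within the window was searched, so elements spelled otherwise or lying elsewhere would have been missed. OAS3 held the element and fell, while EIF2AK2 and IFIT1 held it and were not called. Of tested members with a window, 4 of 5 with a gamma-activated site rose, and 10 of 18 without it. These counts carry no test.

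**Figure D3:**
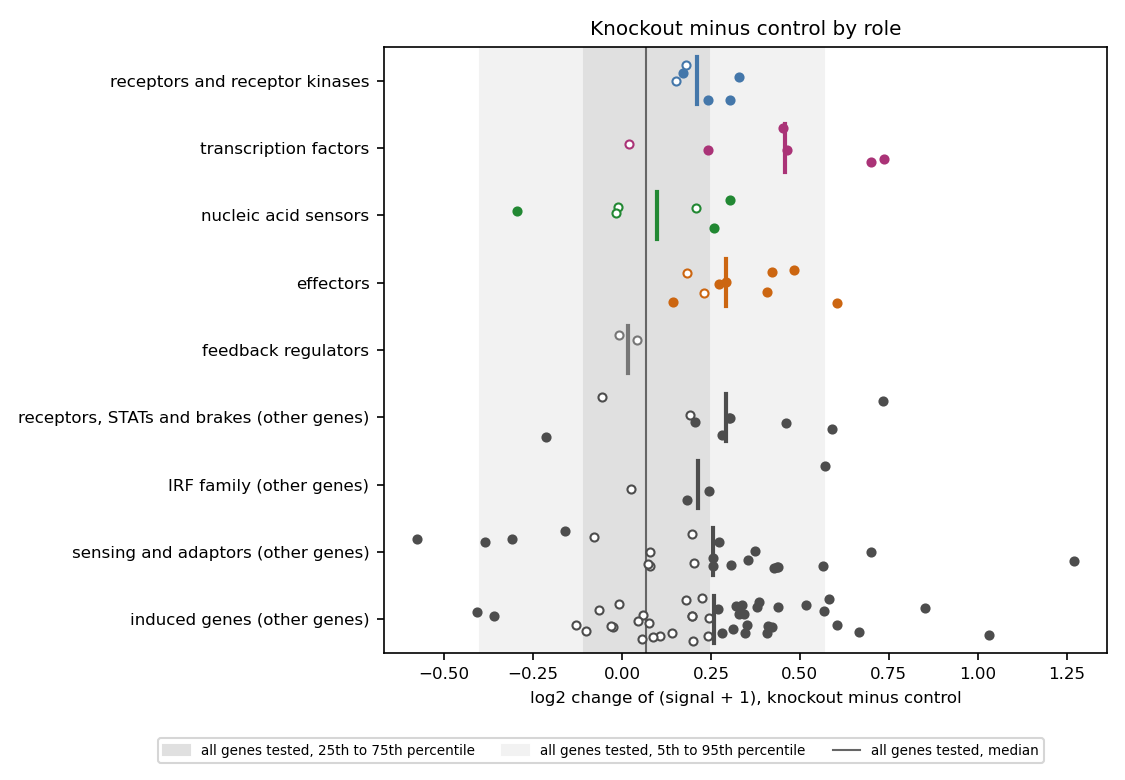
Log2 change of signal + 1 in knockout minus control for each tested gene by role (members coloured, other pathway genes grey), with filled points past an adjusted p of 0.05, vertical bars at the list medians and bands for all genes tested. Transcription factors centre at 0.46 and sensors at 0.099, where the median over all genes was 0.067.

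Other genes of the pathway were taken from a separate list of 113, of which 89 had a row and 81 were tested. In knockout 45 of them rose and 7 fell, with a median log2 change of 0.25. Over all genes tested 26.2% rose and 13.5% fell, with a median of 0.067. Among receptors, STAT proteins and inhibitors 7 of 10 rose. JAK2, the kinase of the interferon gamma receptor and of many cytokine receptors, had a signal of 4.03 and 4.40 in rescue, 7.67 and 7.55 in knockout and 4.32 and 4.03 in control libraries (log2 0.73, adjusted p = 4.37e-05). SOCS1, a feedback inhibitor of JAK kinases, had a signal of 0.504 and 0.522 in rescue, 1.54 and 1.27 in knockout and 0.595 and 0.596 in control libraries. It passed the filter only through the knockout libraries, as did AIM2 and HERC6, so its test is not given. All 3 are counted among the 45. IL10RB, a receptor chain shared by interleukin-10 and interferon lambda, rose by 0.46 (adjusted p = 0.000106).
In the IRF family 3 of 4 rose, and IRF8, a factor of the monocyte and dendritic lineages, had a signal of 28.5 and 29.2 in rescue, 39.1 and 38.6 in knockout and 27.0 and 24.7 in control libraries (log2 0.57, adjusted p = 1.98e-05). IRF2BP2 (log2 0.18) and IRF2BP1 (log2 0.25), partners of IRF2, rose less, and each lost the call without control replicate 2 and without either knockout library (adjusted p up to 0.109 and 0.208).
Among sensing proteins and adaptors 12 of 22 rose and 4 fell, where 13.5% of all genes tested fell. TMEM173, the adaptor STING of cytosolic DNA sensing, had a signal of 28.0 and 28.6 in rescue, 42.7 and 38.8 in knockout and 26.4 and 23.0 in control libraries (log2 0.70, adjusted p = 1.12e-05). MNDA, which is also on the myeloid marker list, rose by 1.27 and PYHIN1, of the same family as IFI16, by 0.56. IRAK1, a kinase of Toll-like receptor signalling, had a signal of 156 and 157 in rescue, 111 and 102 in knockout and 165 and 154 in control libraries, and fell by 0.58 on the log2 scale (adjusted p = 6.98e-06). RNASEH2A, a subunit of ribonuclease H2, fell by 0.39, and TRAF3, an adaptor for interferon induction, by 0.31. The TRAF3 call was lost without control replicate 1 and without either knockout library (adjusted p up to 0.0938).
Among other induced genes 23 of 44 rose and 2 fell. TRIM21, a cytosolic antibody receptor, rose by 0.85, NMI, which binds STAT proteins, by 0.52 and TNFSF10, the death ligand TRAIL, by 1.03. The fallen genes were PNPT1, a mitochondrial exoribonuclease, at -0.41 and WARS, the tryptophanyl-tRNA synthetase, at -0.36. Of 7 interferon genes listed, IFNK alone had a row. It was looked at after its values were seen, had signals of 1.14 to 1.94 and did not pass in knockout (log2 0.21, adjusted p = 0.127). In rescue against knockout IFNK fell by 0.38 on the log2 scale (adjusted p = 0.0145), with 1.14 and 1.32 in rescue, 1.86 and 1.94 in knockout and 1.57 and 1.43 in control libraries.

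In rescue against knockout cells, which share the knockout libraries with the comparison above, 9 of the 29 tested members fell, 1 rose and 19 did not pass. Over all genes tested 15.9% fell and 15.6% rose (31.4% in either direction). The median log2 change of the members was -0.18, beside -0.012 over all genes. The fallen members were IRF1, IRF5, IRF9, TYK2, IFIH1, ISG15, IFI6, IFIT3 and BST2. Of 29 members, 21 had both rescue libraries below both knockout libraries and 5 had both above, where 38.1% and 34.7% of all genes did so.

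IRF1 fell by 0.55 (SE 0.089, adjusted p = 0.000514) in rescue against knockout, IRF9 by 0.48 (SE 0.10, adjusted p = 0.00274) and IRF5 by 0.41 (SE 0.073, adjusted p = 0.000946). IFIT3 fell by 0.44 (SE 0.0997, adjusted p = 0.00466), and with these 3 factors it kept its call under every alternative that tested it. ISG15 fell by 0.41 (adjusted p = 0.00385), BST2 by 0.27 (adjusted p = 0.00863) and IFI6 by 0.25 (adjusted p = 0.00704). IFIH1 fell by 0.29 (adjusted p = 0.0163) and TYK2 by 0.26 (adjusted p = 0.0195). OAS3, the member that fell in knockout, was higher in rescue by 0.33 (adjusted p = 0.0101). Without rescue replicate 2 the count of fallen members was 5 and none rose, with OAS3, IFIH1, TYK2, BST2 and IFI6 no longer called. TYK2, BST2 and ISG15 were not called without knockout replicate 1, OAS3 and IFIH1 without knockout replicate 2, and TYK2 without rescue replicate 1, with adjusted p of up to 0.176 for TYK2, 0.109 for BST2, 0.107 for IFI6, 0.0883 for ISG15, 0.189 for IFIH1 and 0.11 for OAS3 over the alternatives. Equal sums without the 4 most abundant RNAs gave 19 fallen members, but also 31% of all genes as fallen and 32.9% of all calls as rises, in place of 49.5%.

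IRF3 just missed the threshold in this comparison (log2 -0.25, adjusted p = 0.050044) and passed it under 9 of 16 alternatives. IRF3 was not alone in depending on the setting. After quantile normalization IFNAR2, STAT2, SP100, JAK1, IFNGR1 and IFNGR2 were also called as fallen, and EIF2AK2 as risen. IFITM2 differed little between rescue and knockout (log2 0.024, 95% interval -0.089 to 0.14), and its rescue libraries lay above both control libraries. The same held for IFI35, looked at after its values were seen, at 1.01 and 1.33 in rescue, 0.96 and 1.22 in knockout and 0.822 and 0.738 in control libraries.

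In rescue against control cells, which share their libraries with both comparisons above, no member passed the test by limma, and 5 had an unadjusted p under 0.05. Of all genes tested, 29 rose and 7 fell (0.228% and 0.055%, or 0.283% in either direction). The smallest adjusted p of a member was 0.239, for IFITM2 (log2 0.17). The members' median log2 change was 0.074, beside 0.061 over all genes. Both rescue libraries lay above both control libraries for 16 of the 29 members, where 34.6% of all genes did so, and below them for none, where 5.33% did so. Without control replicate 2, which was the lowest library for 23 of the 29 members, the median of the members was 0.028 and that of all genes 0.00056.

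The distance of single members from control in rescue was not well determined. The log2 change of rescue against control was 0.044 for IRF5, with -0.027 to 0.11 over the alternatives, and 0.069 for TYK2, with -0.033 to 0.17. For ISG15 it was 0.072, with 0.010 to 0.10, and for IRF3 0.21, with 0.053 to 0.36. IRF1 stood at 0.15, with 0.094 to 0.18, and IRF9 at 0.25, with 0.16 to 0.35. For IRF1, IRF9, ISG15 and IRF3 all values of this kind were above 0. For IRF5 and TYK2 they lay on both sides of it. The alternatives refit the same libraries and do not replace an interval. In the main fit the 95% interval was -0.037 to 0.35 for IRF1 and -0.12 to 0.27 for ISG15. It was 0.037 to 0.47 for IRF9 and 0.0092 to 0.41 for IRF3, where the median over all genes was 0.061.

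**Figure D4:**
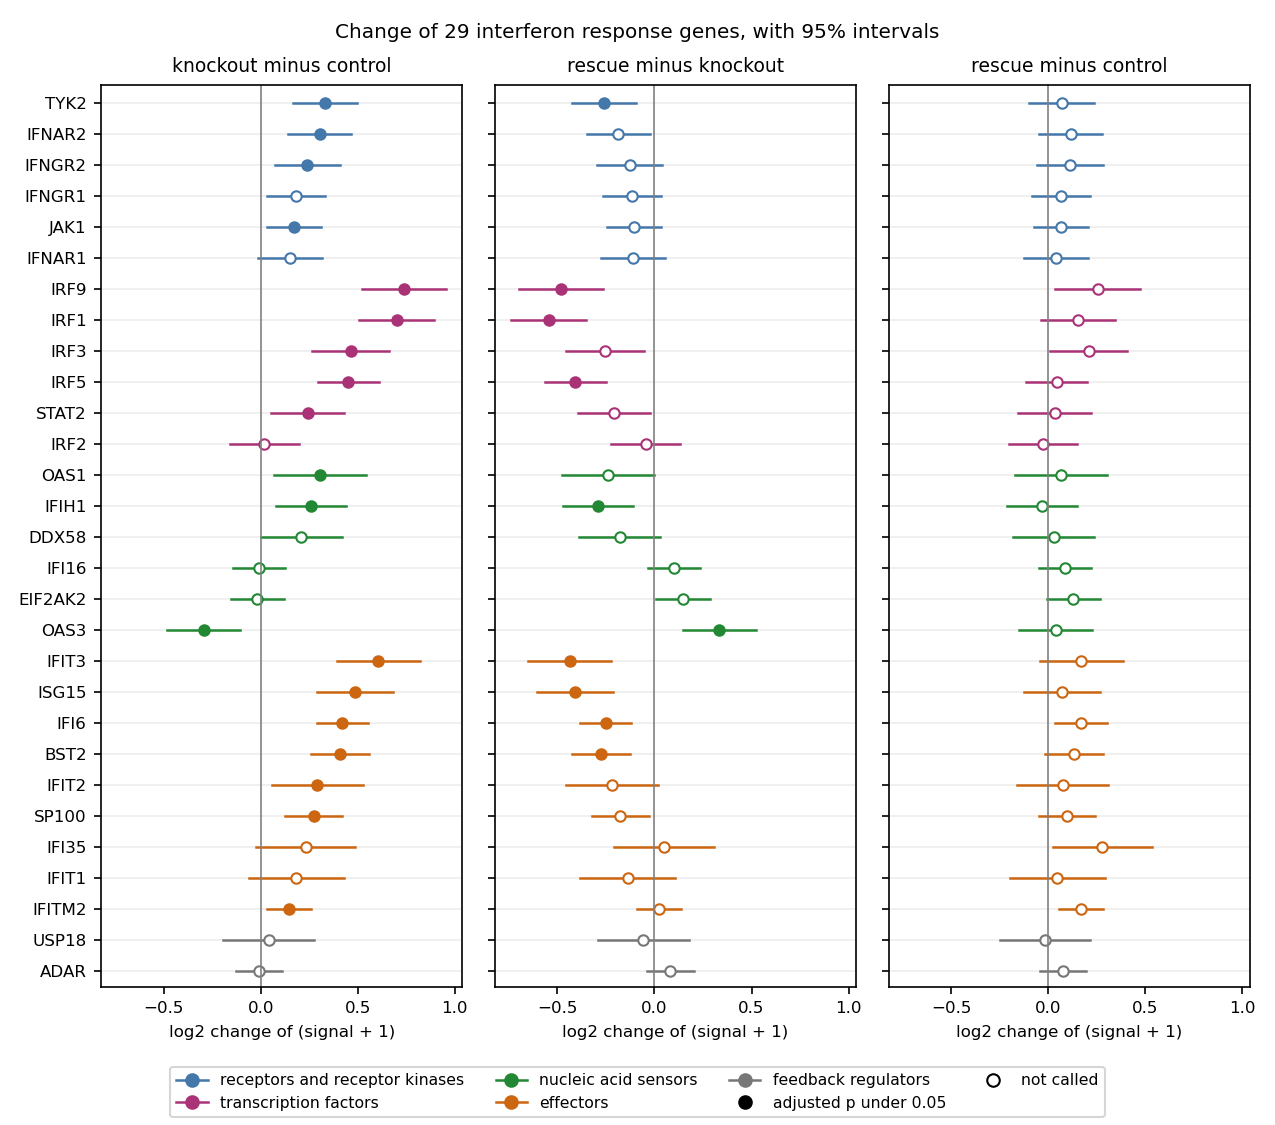
Log2 change of signal + 1 for the 29 tested members in the 3 comparisons, with 95% intervals that are not adjusted for the number of genes, colours for roles and filled points past an adjusted p of 0.05. In knockout minus control 18 members are filled above 0 and OAS3 below it, in rescue minus knockout 9 are filled below 0 and OAS3 above it, and in rescue minus control none is filled.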

How the data were processed

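Per the labels' protocols, ribosomal RNA was removed from QIAzol extracts of total RNA before stranded libraries were sequenced on an Illumina instrument. Per the submitters' processing notes, STAR and RSEM were used with GRCh38, and versions are not given in the sources used here. The table holds the RSEM signal that the authors deposited, of unstated kind (TPM or FPKM), with no value of 0. Read totals are not given in the sources used here. For transcripts of up to 400 nt, the signal times the length less 50 nt lay within 0.15 read of a whole multiple of a step for 71.6% to 82.8% of low values. A fixed step would give 30% by chance, and a step chosen on the same values gives more.

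The test was limma 3.58.1 (R 4.3.3) with a trend, on log2(signal + 1), for the 12734 of 15059 genes that reached a signal of 1 in 2 or more libraries. The deposited signal entered it without further scaling between libraries. All 6 libraries entered a single fit, with 3 residual and 11.0 prior degrees of freedom. Tests were two-sided, with Benjamini-Hochberg adjustment over these genes and a threshold of 0.05. Every adjusted p is from this test. Adding 1 understates the change of low genes. The script was tested on simulated data. Groups came from the labels. The members, roles, gene lists and motifs were chosen with earlier results of these data known. Values in every library were given for members past 0.05 in any comparison and for the most abundant of each role. Other pathway genes were named by smallest p, up to 3 per list and direction. A gene that this rule named is not reported here. Alternatives changed the pseudocount, filter, scaling, trend, groups fitted, replicate block and libraries. Coordinates and overlaps are from GENCODE 29 and promoters from RefSeq. Python 3.11.15, pandas 2.3.3, numpy 2.4.6 and matplotlib 3.10.9 did the rest.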

Additional observations from a re-analysis of the deposited data

How the results depend on the processing

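Over the 16 alternatives no named value of a member or pathway gene that passed the test reversed its direction. Members risen in knockout against control numbered 11 to 17 when 1 library was left out, and members fallen 0 to 1, or 3 after median-of-ratios scaling. Over all genes, the fallen became 3187 after quantile normalization and 3435 after median-of-ratios scaling, and the risen ran from 2065 to 4127 when 1 library was left out. In rescue against knockout, members fallen became 16 after quantile normalization and 19 with equal sums without the 4 most abundant RNAs, and 5 to 13 when 1 library was left out. Members risen there became 2 after quantile normalization, 4 after median-of-ratios scaling, 2 with only the 2 groups compared, and 0 to 2 when 1 library was left out. Over all genes there, the fallen became 3950 with equal sums and 1119 to 2538 when 1 library was left out, and the risen 3102 after median-of-ratios scaling and 1154 to 2492 when 1 library was left out. In rescue against control, genes fallen and risen became 31 and 194 when a mean of 5 or more was required, 14 and 19 after quantile normalization, 0 and 6 after median-of-ratios scaling, 12 and 17 with equal sums, 4 and 5 without the trend, 71 and 217 with only the 2 groups compared, and 83 and 299 with the replicate block. Without a filter the risen were 17. When 1 library was left out, 1 to 73 fell and 6 to 213 rose. No member passed in rescue against control under any alternative. The causes were not tested. The difference between replicates was correlated between groups over all genes tested, at 0.101, -0.0481 and -0.011. These values showed no pairing by replicate number but cannot exclude it. With the replicate block 19 members rose and 1 fell in knockout against control, and 10 fell and 1 rose in rescue against knockout. With 2 libraries a group and no read totals, small differences and low signals were the least certain.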
